A study of Mus musculus with 6 samples.

Results

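Evx1 and Evx2 and 5 further genes that border the Hoxa or Hoxd cluster were followed in tailbud tissue of WT embryos and of embryos homozygous for MommeD43, an allele of Smchd1. The 7 genes were taken by name from 35542 genes in the table. The 4 next to Hoxa, on mouse chromosome 6, were Evx1, Skap2, Hibadh and Jazf1, and the 3 next to Hoxd, on chromosome 2, were Evx2, Lnpk and Mtx2. All 7 are protein-coding. In the 6 libraries Evx1 was the most abundant of them and Evx2 the least, and none of the 6 genes that could be tested passed the threshold between genotypes. Evx1 was lower in the 1 MommeD43 male than in the 1 WT male and higher in both MommeD43 females than in both WT females.

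Hox genes lie in clusters in which gene order follows the order of activation along the body axis. Evx1 and Evx2 are homeobox genes related to even-skipped of the fly. They sit beyond the posterior ends of Hoxa and Hoxd, and Evx1 is known as a gene of the primitive streak and tailbud. The other bordering genes are Jazf1, a zinc finger gene, and genes with housekeeping or signalling roles unrelated to axial patterning. Some of them lie in the regulatory landscapes that surround the clusters.

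The tissue was dissected from FVB/NJ embryos with 8 somites (embryonic day 8.5) and holds presomitic mesoderm, the source of the next somites. There were 3 Smchd1+/+ (WT) and 3 Smchd1MommeD43/MommeD43 (MommeD43) libraries, each with 1 male and 2 females. MommeD43 is a missense allele recovered from a chemical (ENU) mutagenesis screen, and it is carried in every cell of the embryo. Smchd1 encodes a chromatin protein that takes part in silencing the inactive X chromosome and some autosomal genes, Hox clusters among them. Both males were replicate 1 of their group and came from the same mother, whereas the 4 females each came from a mother of her own. Sex and litter therefore cannot be told apart. Among the females no mother gave both genotypes, so genotype and litter cannot be told apart there.

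Library totals ranged from 10957916 to 47298348 recovered reads, 4.32-fold. Smchd1 itself was at 7.31 to 8.58 RPKM (reads per kilobase of exon, scaled to library size) in WT and 7.15 to 7.94 in MommeD43, and for a missense allele this level does not check the genotype. All 22 genes of the posterior tailbud list had over 3 reads in every library, with a summed level of 1145 to 1531 RPKM in WT and 1099 to 1385 in MommeD43. The blood list (4 of 9 genes with over 3 reads in every library) summed to 8.96 to 485.9 RPKM in WT and 22.8 to 220.1 in MommeD43. The yolk sac endoderm list (10 of 10) summed to 149.5 to 298.7 and 41.1 to 464.8. Endothelium (8 of 8) stood at 42.8 to 61.7 and 45.6 to 60.0, hindgut endoderm (6 of 6) at 114.0 to 114.4 and 102.8 to 122.5, and allantois and lateral mesoderm (6 of 6) at 148.5 to 163.6 and 147.2 to 176.5. Somite markers (4 of 7, Uncx without a read in any library) reached 3.45 to 4.72 and 3.70 to 4.85, and neural tube markers (3 of 6, Dbx1 without a read) 3.06 to 6.48 and 4.71 to 5.92. In bulk tissue, fewer cells of a type and less RNA per cell cannot be told apart.

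The genes lie at different distances from the clusters. On GRCm38, Evx1 occupies chr6:52313498-52318378 on the plus strand, 52.6 kb past Hoxa13. Hibadh (chr6:52546228-52640389, minus strand) and Jazf1 (chr6:52768797-53068631, minus strand) lie beyond Hoxa13 on the same side, with their near (3′) ends at 285.3 and 507.9 kb and their starts at 379.5 and 807.8 kb. Skap2 (chr6:51857422-52012549, minus strand) is on the other side of the cluster. At the other cluster, Evx2 (chr2:74652991-74659557, minus strand) is only 8.8 kb from Hoxd13, and Lnpk (chr2:74520291-74579435, minus strand) lies 88.9 kb from Hoxd13 on the same side. Mtx2 (chr2:74825803-74878431, plus strand) is 60.7 kb from Hoxd1, at the anterior end.

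The 250 bases before the annotated start are shown for Evx1 and Evx2, the homeobox pair with the highest and the lowest level, and for Mtx2 and Jazf1, an active and a nearly silent gene without a homeobox. Of the 2 RefSeq starts of Jazf1, the one nearest the start of the gene in the annotation was used. They are the RefSeq promoter sequences of GRCm38.p6, read 5′ to 3′ on the strand of the gene, and capitals mark CpG dinucleotides. The windows are chr6:52313248-52313497 (plus), chr2:74659558-74659807 (minus), chr2:74825562-74825811 (plus) and chr6:53068625-53068874 (minus), in the order printed.
Evx1: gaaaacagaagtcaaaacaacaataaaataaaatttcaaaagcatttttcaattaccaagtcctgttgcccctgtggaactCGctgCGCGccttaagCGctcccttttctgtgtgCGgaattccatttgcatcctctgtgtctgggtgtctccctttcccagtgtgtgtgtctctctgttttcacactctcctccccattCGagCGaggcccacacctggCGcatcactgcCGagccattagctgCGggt
Evx2: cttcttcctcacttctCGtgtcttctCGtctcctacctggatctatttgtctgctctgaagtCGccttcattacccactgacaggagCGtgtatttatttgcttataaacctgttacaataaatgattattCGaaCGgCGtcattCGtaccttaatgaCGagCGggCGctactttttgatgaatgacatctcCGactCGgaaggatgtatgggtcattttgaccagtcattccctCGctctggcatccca
Mtx2: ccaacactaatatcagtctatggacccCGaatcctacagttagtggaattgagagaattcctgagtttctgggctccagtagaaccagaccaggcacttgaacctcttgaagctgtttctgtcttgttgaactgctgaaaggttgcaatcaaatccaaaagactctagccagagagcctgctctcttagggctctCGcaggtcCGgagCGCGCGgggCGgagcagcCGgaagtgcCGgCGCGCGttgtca
Jazf1: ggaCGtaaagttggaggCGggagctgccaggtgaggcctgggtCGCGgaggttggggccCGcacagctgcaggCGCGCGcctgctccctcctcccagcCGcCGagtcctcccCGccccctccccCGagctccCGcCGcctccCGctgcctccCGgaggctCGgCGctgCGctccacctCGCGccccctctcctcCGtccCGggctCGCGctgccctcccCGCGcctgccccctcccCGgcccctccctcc
Evx1 held 10 CpG, Evx2 14, Mtx2 12 and Jazf1 28, and the other 3 genes held 20 (Hibadh), 23 (Lnpk) and 24 (Skap2), against a median of 6 over the 32851 promoters in the table. RefSeq starts can differ from the gene ends given above. The Lnpk window (chr2:74578949-74579198) lies wholly inside that gene, the Hibadh window (chr6:52640301-52640550) in part, and those of Mtx2 and Jazf1 by a few bases. Evx1 and Mtx2, with the highest levels, had the fewest CpG, and Jazf1, with next to the fewest reads, had the most. Evx2, with the fewest reads, had 14. The letters TTTAT, a core bound by Cdx factors, occurred on either strand in the windows of Evx1 and Evx2 and in none of the other 5, against 37.3% of all promoters. TCACAC, part of a T-box site, occurred in Evx1 alone of the 7 (12.3% of all promoters), and CTTTGA, a TCF/LEF core, in 0 of the 7 (13.8%). These motifs do not overlap each other, and a match describes the sequence only.

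Evx1 was measured at 66.1, 45.2 and 44.5 RPKM in WT replicates 1, 2 and 3, and at 43.5, 55.5 and 55.5 RPKM in the MommeD43 replicates. The highest and the lowest values were the 2 males, and the groups overlapped. Their means were 51.9 ± 12.3 RPKM in WT and 51.5 ± 6.93 in MommeD43 (SD, n = 3 each). Behind these values stood 1371 to 7548 reads per library, and the exact Poisson 95% interval of the shallowest library, the MommeD43 male, was 41.2 to 45.9 RPKM.

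Evx2, the partner gene next to Hoxd13, was close to silent. It had 10, 16 and 10 reads in WT and 2, 14 and 0 in MommeD43, or 0.0652, 0.162 and 0.144 RPKM against 0.0436, 0.0706 and 0. The library without a read allows a level of up to 0.0547 RPKM (3 reads). In 2 of 3 MommeD43 libraries the level was below every WT library, and the third lay just above the WT male, so the groups overlapped. Those 2 were also the shallowest of the 6 libraries. The Poisson 95% interval of the MommeD43 male, 0.00527 to 0.157 RPKM, took in the values of the WT male and of WT replicate 3. Evx2 was under the filter on low values and was not tested with the other genes. An exact two-sided permutation test of its RPKM gave a p of 0.2, where 3 libraries against 3 cannot go below 0.1. Intervals and limits of this kind cover counting error only.

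The levels of Mtx2, which encodes an import component of the mitochondrial outer membrane, hardly varied. It was at 20.2, 20.5 and 19.9 RPKM in WT and 19.1, 20.9 and 19.3 in MommeD43. Lnpk encodes lunapark, a protein of endoplasmic reticulum junctions, and was at 2.85, 2.92 and 2.62 RPKM in WT and 2.70, 2.67 and 2.50 in MommeD43. The lowest MommeD43 library of Lnpk was below every WT library and the others lay within the WT range, so its groups overlapped, as did those of Mtx2.

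On the Hoxa side, Skap2 encodes an adaptor of Src-family kinases and stood at 6.19, 5.88 and 6.36 RPKM in WT against 5.63, 7.15 and 6.31 in MommeD43. Hibadh, a mitochondrial enzyme of valine breakdown, was at 4.82, 5.30 and 5.82 RPKM against 5.42, 5.52 and 5.58. The 3 MommeD43 values of Hibadh all fell inside the WT range, and those of Skap2 spread beyond it on both sides. Jazf1, a zinc finger gene, had 17, 22 and 11 reads in WT and 9, 17 and 5 in MommeD43, which made 0.183, 0.367 and 0.261 RPKM against 0.324, 0.142 and 0.151. The 2 MommeD43 females were below every WT library and the MommeD43 male was above the WT male, so the groups of Jazf1 overlapped too.

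**Figure D1:**
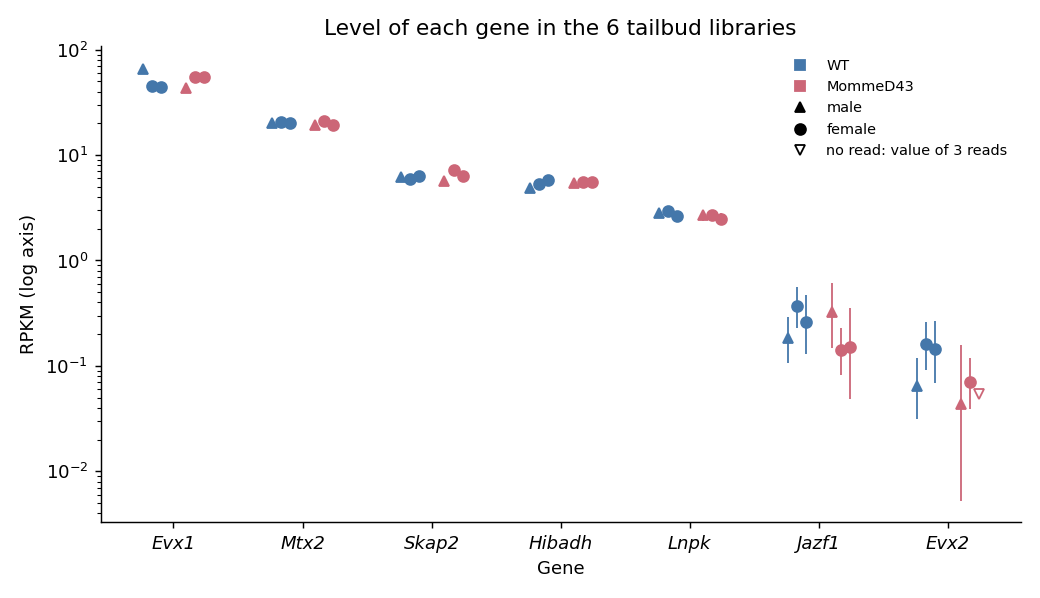
RPKM (log axis) of the 7 genes in each library, with blue for WT, red for MommeD43, triangles for males and circles for females. Lines are exact Poisson 95% intervals of the reads and the open triangle is the value of 3 reads in the MommeD43 library without an Evx2 read. Evx1 stands highest and Evx2 lowest.

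Per exon length, the order of median levels over 6 libraries was Evx1 (50.3 RPKM), Mtx2 (20.1), Skap2 (6.25), Hibadh (5.47), Lnpk (2.69), Jazf1 (0.222) and Evx2 (0.0679). The ranges of Evx1 and Mtx2 did not meet, and Evx1 was 2.20 to 3.27 times Mtx2 within a library. Skap2 and Hibadh overlapped in range, although Skap2 was above Hibadh in 6 of 6 libraries, by 1.04 to 1.295 times. Jazf1 and Evx2 overlapped as well, at 0.142 to 0.367 and 0 to 0.162 RPKM. The level of a gene depends on the exon length used, which here joins the exons of all annotated transcripts: 11357 bases for Skap2 and 10179 for Hibadh, against 2877 for Evx1 and 2536 for Jazf1.

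Between genotypes, 0 of the 6 tested genes were called, and 0 of 13617 autosomal genes (0.0%) were called by limma with Benjamini-Hochberg adjustment over all of them. At an unadjusted p under 0.05 the numbers were 0 of 6 genes against 327 of 13617 (2.4%). The groups did not overlap for 0 of 6 genes, against 964 of 13617 (7.08%). With 3 libraries a group, the intervals below say which differences these data could have missed.

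The log2 fold change of Evx1, MommeD43 against WT, was 0.004 ± 0.160 (SE) with a 95% interval of -0.365 to 0.372, or 0.777-fold to 1.29-fold. The narrowest interval was that of Mtx2, whose log2 fold change was -0.032 ± 0.059 (0.891-fold to 1.07-fold). Hibadh was at 0.054 ± 0.095 (0.893-fold to 1.21-fold), Skap2 at 0.044 ± 0.103 (0.875-fold to 1.22-fold) and Lnpk at -0.091 ± 0.112 (0.786-fold to 1.12-fold) on the same log2 scale. For these 5 genes a change of 1.5-fold in either direction, as a mean over all 6 libraries, lay outside the interval. For Evx1 this mean joins opposite directions, with the male pair at 0.658-fold (0.580-fold to 0.748-fold) and the females at 1.24-fold. Jazf1, with few reads, had a log2 fold change of -0.448 ± 0.449 and an interval of -1.480 to 0.585, so that differences of that size were not detectable at its depth. The adjusted p of all 6 was 0.999 in limma. The direction of Evx1 turned when any 1 of the 4 female libraries was left out (-0.095 to -0.055), that of Hibadh without WT replicate 1 (-0.014) and that of Skap2 without MommeD43 replicate 2 (-0.043).

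The genes varied among embryos to different degrees. Over the 6 libraries the SD of log2 RPKM was 0.241 for Evx1, where counting its reads alone would give 0.028, a ratio of 8.58. The SD of Evx1 was above that of 71.7% of tested genes, whose median SD was 0.140. Its ratio was above that of 98.9% of them (median 1.94), but a ratio to counting error is larger in genes with many reads for the same spread. Mtx2 had an SD of 0.051, next to 0.039 from counting, above that of 5.90% of tested genes in SD and 20.03% in ratio. Lnpk (0.082 beside 0.067) was also near its counting error, Hibadh (0.092 beside 0.045) and Skap2 (0.117 beside 0.040) lay between, and Jazf1 (0.581 beside 0.443) was close to the spread that its few reads give.

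**Figure D2:**
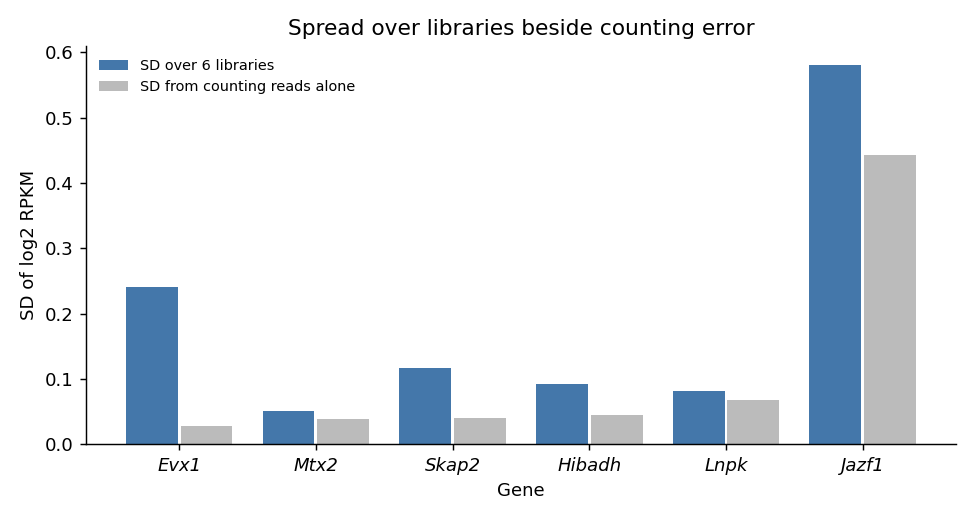
SD of log2 RPKM over the 6 libraries (blue) beside the SD that counting reads alone would give (grey), for the 6 genes with reads in every library. Evx1 stands at 0.241 against 0.028, and Mtx2 at 0.051 against 0.039.

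Since the libraries of each genotype were 1 male and 2 females, the genotype effect was also estimated within each sex. In the females, the Evx1 log2 fold change was 0.307 ± 0.054, and in the male pair it was -0.603 ± 0.077, where the error is taken wholly from the females because each genotype had 1 male, so that the spread among males is unknown. Both MommeD43 females (55.5 and 55.5 RPKM) were above both WT females (45.2 and 44.5), and the MommeD43 male (43.5) was below the WT male (66.1). The difference between the 2 effects, male pair minus females, was -0.910 ± 0.094 with a 95% interval of -1.135 to -0.685 and an adjusted p of 0.0276 (limma, sex by genotype). In this comparison 1 of the 6 genes was called, against 37 of 13617 (0.272%). Neither effect was called by itself, with adjusted p of 0.206 in females and 0.102 in the male pair. Without MommeD43 replicate 2 both passed the threshold, at 0.308 in females and -0.603 in the male pair. Without MommeD43 replicate 3 only the male pair did, at -0.603. Each of these fits leaves 1 MommeD43 female, and in each more genes passed than with all 6 libraries. The call of the difference rests on 2 residual degrees of freedom and was lost when WT replicate 2 or WT replicate 3 was left out. The difference itself stayed between -0.922 and -0.893 over all 10 alternatives. Each of them keeps the same WT male and the same MommeD43 male, so this range cannot show the spread among males.

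The other 5 tested genes were not called in the same comparison. The difference, male pair minus females, was 1.906 ± 0.715 for Jazf1 (adjusted p = 0.424), -0.272 ± 0.186 for Skap2 (0.613) and 0.170 ± 0.178 for Hibadh (0.741). For Mtx2 it was -0.072 ± 0.122 (0.847) and for Lnpk 0.023 ± 0.245 (0.977), all on the log2 scale and by limma. Their intervals were wide, from -0.361 to 0.218 for Mtx2 and from 0.203 to 3.609 for Jazf1. Jazf1, with few reads, had an unadjusted p of 0.0333 in limma. At an unadjusted p under 0.05 this comparison held 2 of the 6 genes, Evx1 and Jazf1, against 1471 of 13617.

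**Figure D3:**
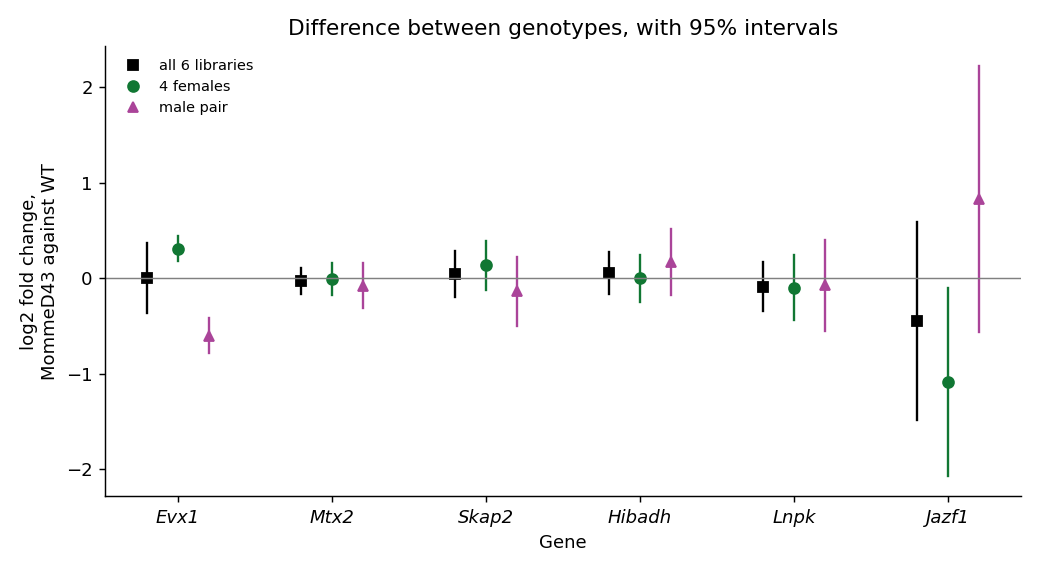
log2 fold change, MommeD43 against WT, of the 6 tested genes in all 6 libraries (black), in the 4 females (green) and in the male pair (purple), with 95% intervals. Evx1 lies at 0.004 in all libraries, 0.307 in females and -0.603 in the male pair.

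Evx1os, the antisense transcript that begins inside Evx1 and runs back across its start, varied with Evx1 (r = 0.953 over 6 libraries). It was at 57.1, 39.4 and 39.1 RPKM in WT and 37.7, 44.5 and 52.6 in MommeD43, and the ratio of Evx1 to Evx1os stayed between 1.06 and 1.25. Evx1os had a difference, male pair minus females, of -0.903 ± 0.147 (adjusted p = 0.0974 by limma), which was not called. Evx1os was called with voom on recovered reads (adjusted p = 0.0367), a fit that called 76 genes against 37 in the main fit. It was not called with pseudocounts of 0.1 (0.0829) and 1 (0.0912), median-ratio scaling (0.0964) or the 1 RPKM filter (0.0908). Dropping a MommeD43 female moved its difference to -1.023 (replicate 2) or -0.784 (replicate 3). Dropping a WT female gave -0.909 (replicate 2) or -0.897 (replicate 3). Each of these last fits leaves 1 female in a group, so only the size is given. Both genes share 73 exon bases on opposite strands, 2.54% of Evx1. Counting kept strands apart where this could be checked: 29 genes whose exons lay almost wholly (at least 95%) under exons of a gene at 20 RPKM or more on the other strand had a median level of 0.301% of that gene.

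Most genes of the posterior tailbud list had the signs of Evx1 in each sex. Of 21 tested genes of that list, 20 (95.2%) were lower in the MommeD43 male and higher in the MommeD43 females than in their WT counterparts, against 31.75% of all tested genes. The median log2 fold change of the list was -0.499 in the male pair and 0.265 in females, beside -0.008 and 0.007 over all genes. The difference was called for 3 of the 21, all 3 more negative in the male pair: T (brachyury, the T-box factor of the primitive streak and tailbud) at -0.910 with an adjusted p of 0.0275, Msgn1 (a presomitic mesoderm regulator) at -1.065 (0.0263) and Wnt3a (a Wnt ligand of the tailbud) at -1.36 (0.0493), by limma on the log2 scale. Msgn1 and Wnt3a were chosen after their values were seen. Cdx2, a homeobox regulator of posterior growth, was at -0.429 (adjusted p = 0.286) and was not called. The exception was Hes7, an oscillating repressor of the segmentation clock, with a log2 fold change of 0.410 in the male pair and 0.496 in females.

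Markers of several other cell types tended to the opposite signs, and yolk sac endoderm had the most genes called. All 10 tested genes of that list were higher in the MommeD43 male and lower in the MommeD43 females than in WT, against 28.3% of all genes, and the difference was called for 7 of them. Their summed level was 149.5, 266.1 and 298.7 RPKM in WT and 464.8, 55.1 and 41.1 in MommeD43. The library with the most of these markers, the MommeD43 male, had the least Evx1, and the WT females had more of the markers and less Evx1 than the MommeD43 females. The WT male went the other way, with more of the markers than the MommeD43 females and the most Evx1. The same signs as in yolk sac endoderm were found in 4 of 6 blood genes (median log2 fold change 1.706 in the male pair and -1.878 in females), 4 of 8 endothelium genes (1.112 and -0.149), 3 of 4 neural tube genes (0.802 and -0.415) and 4 of 6 hindgut endoderm genes (0.314 and -0.079). They were found in 2 of 3 somite genes (0.281 and -0.180) and 2 of 6 genes of allantois and lateral mesoderm (0.074 and -0.034), and the difference was called for 0 genes of these 6 lists. The summed posterior tailbud level was highest in the WT male (1531 RPKM) and lowest in the MommeD43 male (1099), as for Evx1. The part that these markers had in the Evx1 result was not tested.

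**Figure D4:**
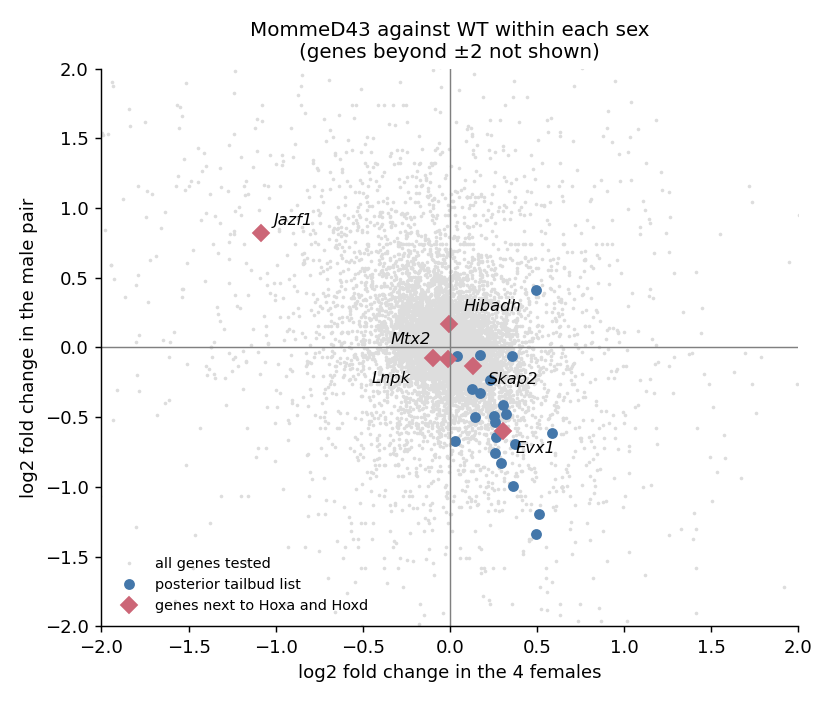
log2 fold change, MommeD43 against WT, in the 4 females (horizontal) and in the male pair (vertical) for all tested genes (grey), the posterior tailbud list (blue) and the 6 tested genes (red diamonds). Evx1 lies among the tailbud genes at 0.307 and -0.603, and 20 of the 21 tailbud genes share its quadrant.

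Over all 6 libraries, 0 of the 21 posterior tailbud genes were called between genotypes, and their median log2 fold change was 0.005 beside 0.003 for all genes. The highest were Hes7 (0.467 ± 0.196) and Dll1, a Notch ligand (0.217 ± 0.113). The lowest were Sp8 (-0.203 ± 0.139) and Mixl1 (-0.116 ± 0.339), with T at -0.039 ± 0.173 and Cdx2 at -0.016 ± 0.087. Hes7 was the 1 gene of the list with an unadjusted p under 0.05 (0.0441), and its adjusted p was 0.999 in limma.

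The 5 genes most like Evx1 over the 6 libraries, by Pearson's r of log2 RPKM among 10624 genes with a mean of at least 1 RPKM, were Chek2 (0.990), Taf8 (0.988), D8Ertd738e (0.987), Sppl2b (0.983) and Scaf1 (0.982). Chek2 is a DNA damage checkpoint kinase and Taf8 a subunit of the general factor TFIID. Their changes were smaller than that of Evx1, with a log2 fold change of -0.152 in the male pair and 0.088 in females for Chek2. T ranked 12 (0.968) and Evx1os 34 (0.953) in the same order, and of the genes next to the clusters Skap2 ranked 2760 (0.461), Mtx2 4062 (0.273), Lnpk 5521 (0.016) and Hibadh 9194 (-0.625). Jazf1 was below 1 RPKM and was not ranked. These are descriptions over 6 points that share library preparation and depth.

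The bordering genes were set beside the clusters themselves. Of 11 tested Hoxa genes 0 were called, 8 were lower and 3 higher in MommeD43, and their median log2 fold change was -0.048. The lowest were Hoxa6 (-1.192 ± 0.431) and Hoxa9 (-0.383 ± 0.228), and the highest Hoxa2 (0.204 ± 0.109) and Hoxa10 (0.122 ± 0.259). For Hoxa13, the cluster gene nearest to Evx1, the log2 fold change was -0.345 ± 0.333. Hoxa13 was chosen for its position after values were seen.

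At Hoxd, 0 of 8 tested genes were called, 3 were lower and 5 higher in MommeD43, and their median was 0.088. The 3 lower genes were Hoxd10 (-1.001 ± 0.454), Hoxd11 (-0.613 ± 0.285) and Hoxd13 (-0.660 ± 0.219), and each had its MommeD43 group wholly below WT. The groups were thus apart in this direction for 3 of 8 genes, against 3.55% of all genes, and in the other direction for 1 of 8, Hoxd3 (6.09 to 6.37 RPKM in WT and 6.38 to 7.46 in MommeD43). The 3 lie toward the Evx2 end of the cluster. Of their neighbours there, Hoxd12 had no read in any library and Hoxd9 was higher in MommeD43. Hoxd11 was low, at 0.312 to 0.434 RPKM in WT and 0.221 to 0.260 in MommeD43. The highest were Hoxd3 (0.173 ± 0.088) and Hoxd9 (0.166 ± 0.124). Every adjusted p among the Hox genes was 0.999 in limma, and the direction of Evx2, 0.123 ± 0.0513 RPKM in WT and 0.0381 ± 0.0356 in MommeD43 (SD, n = 3), was that of these 3 genes without passing a test.

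Within 1 Mb of the cluster ends, 16 protein-coding genes passed the filter, 9 near Hoxa and 7 near Hoxd, including the 6 tested genes. None was called (0 of 16), and 0 had an unadjusted p under 0.05. Their median log2 fold change was 0.024 beside 0.003 for all genes, with 11 higher and 5 lower. The groups did not overlap for 2 of the 16, neither of them one of the 6, against 7.08% of all genes. Apart from Jazf1 at -0.448, the log2 fold changes ran from -0.101 to 0.133.

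**Figure D5:**
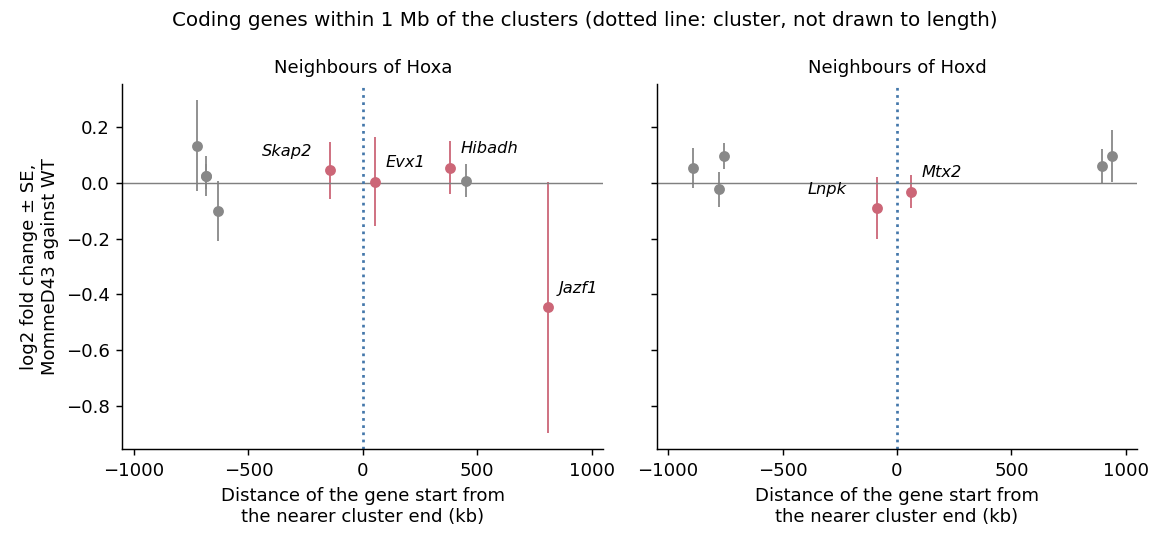
log2 fold change ± SE, MommeD43 against WT, of the 16 coding genes whose start lies within 1 Mb of the Hoxa (left) or Hoxd (right) cluster, by distance of the start from the nearer cluster end in kb. The 6 tested genes are red and named, and Jazf1 at -0.448 has the widest error.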

How the data were processed

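Tailbud RNA was sequenced with a stranded mRNA TruSeq kit (3 WT and 3 MommeD43 libraries). Per the labels and the study's methods, the authors trimmed reads with Trim Galore 0.4.4, mapped them with HISAT2 2.0.5 to GRCm38.p6 and deposited log2 RPKM per gene from the RNA quantitation of SeqMonk. Groups and sexes came from the labels, whose source field names NSCs where the tissue field and titles name tailbud, which was followed. The strand setting of the counting is not given in the sources used here.

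Exon lengths came from GENCODE M21 (35555 of 35591 rows matched by identifier). Whole reads were recovered from RPKM, exon length and library total: 98.9% of 76475 values above 0 and under 1000 reads were whole within 0.02. Absence of reads was coded as 0.9 read. Totals ranged from 10957916 to 47298348 reads. Genes with at least the depth-scaled level of 10 reads (in a library of median size) in 3 libraries and 15 reads in all were kept (14134, of which 13617 autosomal were tested). Where identifiers were repeated (97 rows in all), only the most abundant copy was used.

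Deposited log2 values were fitted with limma 3.58.1 (R 4.3.3, eBayes with trend) by genotype and by sex and genotype, with Benjamini-Hochberg adjustment over autosomal genes and a threshold of 0.05. The fits were also run on simulated counts with the same dispersion for all genes and no differences by litter or tissue. Such counts cannot check the calls made here. Each library came from a separate embryo. Named genes were the 7 genes, the 5 most correlated with Evx1, the 2 highest and 2 lowest of each list, T and Cdx2. The genes, lists and tests were chosen with earlier results of these data known. The closing section gives the alternatives (filters, pseudocounts, scaling, voom, array weights, sex, replicate number, left-out libraries).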

Additional observations from a re-analysis of the deposited data

Results flagged for a closer look

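For Evx1 the test of the difference between the MommeD43 effects, male pair minus females, gave -0.910 on the log2 scale with an adjusted p of 0.0276 by limma. Each genotype had 1 male, so the male arm has no replicate and its error comes from the females, and the adjusted p was 0.208 or 0.219 without WT replicate 2 or 3. It was lower in the 1 MommeD43 male and higher in the 2 MommeD43 females than in WT. Sex and litter cannot be told apart here, markers of yolk sac endoderm and, in part, of other cell types had the opposite signs in the same libraries, and neither was tested as a part of the result. Groups of 3 libraries were not searched for outlying libraries. Array weights, which are lower for libraries further from their group, were 0.442 for the WT male and 0.851 for the MommeD43 male. In the females they ran from 0.73 to 1.73. With these weights the log2 fold change of Evx1 between genotypes was 0.139, against 0.004 without them. The difference of -0.910 was fitted without them.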

How the results depend on the processing

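The alternatives tested 13617 autosomal genes, or 20132 with no filter other than 1 read and 10791 with the 1 RPKM filter. In every alternative but the females alone, where 10 were called, 0 genes were called between genotypes. Of the tested genes next to the clusters, 0 were called in any of the 17 alternatives. The log2 fold change of Evx1 turned to -0.083 without WT replicate 2, -0.095 without WT replicate 3 and -0.055 without MommeD43 replicate 2 or 3, and ran from -0.095 to 0.190 with 1 library left out and up to 0.307 over all. Hibadh turned to -0.014 without WT replicate 1 (highest 0.122 with 1 library left out) and to -0.002 in the females alone, and Skap2 to -0.043 without MommeD43 replicate 2 (highest 0.129 with 1 library left out and 0.135 in the females alone). Mtx2, Lnpk and Jazf1 kept their direction in each alternative in which they were tested, but Jazf1 (-0.448) moved to -0.198 without WT replicate 2, -0.234 and -0.278 without MommeD43 replicates 2 and 3, -0.700 without WT replicate 1 and -0.831 without MommeD43 replicate 1. It was -0.298 and -0.077 with pseudocounts of 0.1 and 1, -0.691 with array weights and -1.083 in the females alone. For the male pair against females, the number of genes called was 37, and 76 with voom on recovered reads. It ran from 5 to 556 with 1 female left out, and the number of genes next to the clusters that were called from 0 to 1, as the Evx1 call was lost without WT replicate 2 (difference -0.922) or WT replicate 3 (-0.898). Lnpk's difference turned to -0.057 without WT replicate 2 and -0.026 without MommeD43 replicate 3 (highest 0.103). The causes of these changes were not tested. No male could be left out of this comparison. A fit that took all kept genes into the variance trend was added after seeing the data, and Evx1 stayed called in it.

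The deviations of same-numbered libraries from their group means correlated at -0.026, 0.167 and -0.173, and those of other-numbered libraries at -0.19 to 0.18. These values cannot settle whether replicate numbers pair the samples, and both replicate 1 embryos came from the same mother. With the replicate block the log2 fold change of Evx1 was 0.004, 0 genes were called and 307 had an unadjusted p under 0.05. Evx2 could be read only in the fit with no filter other than 1 read, where its log2 fold change of -1.635 depends on the value given to the library without a read. Few reads limit Jazf1 (5 to 22 per library) and Evx2 (0 to 16).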
